A study of Cricetulus griseus with 16 samples.

Results

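The genes described here drive a cell from G2 through mitosis and cytokinesis. A list of 42 names was matched, case ignored, to the gene names of the deposited counts, and 38 of the 42 were found among 20824 genes. The other 4 (Cdc25c, Kif11, Prc1 and Birc5) were not found by name and were not analysed here. The list was chosen partly because Ccnf, the gene of cyclin F, was lower at 42.5 °C, so all values at 42.5 °C against 37 °C are a description: no p is given for a member there, and counts of members past the thresholds only describe the list. CHO cells (ATCC CCL-61), a Chinese hamster ovary line, were cultured in Ham's F-12K medium with fetal bovine serum and were in logarithmic growth. The 4 groups were untreated cells at 37 °C and cells kept at 40 °C for either 1 h or 6 h or at 42.5 °C for 1 h, each with 4 biological repeats lettered A to D. Replicate D of the 37 °C group was left out of the tests, as the study left out 1 inconsistent control, so that 37 °C had n = 3 and each heated group n = 4. All groups shared the line and the medium and differed in temperature and time. The labels give no time for the 37 °C group, and there was no separate 37 °C group for each heating time. After 6 h at 40 °C, heating and any longer time in culture therefore cannot be told apart.

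Mitosis begins when CDK1, bound to its B-type cyclin, is freed from the inhibitory phosphates placed by WEE1 and removed by CDC25 phosphatases. Polo-like and Aurora kinases then build the spindle, and the spindle checkpoint holds the anaphase-promoting complex, a ubiquitin ligase, in check until every kinetochore is attached. CDC20 then activates that complex, which leads to destruction of securin, activation of separase and the parting of sister chromatids, after which the contractile ring divides the cell. In a growing culture the mRNAs of this programme peak in cells in G2 and mitosis, so a bulk sample averages over cells in all phases.

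Total counts per library were between 10504192 and 14668365, and 3 counts corresponded to 0.205 to 0.286 CPM, the count of a gene scaled to the library's total. All 38 members passed the filter on low counts in each comparison, and the lowest count of any member in any library was 218, for Cenpa. The mesenchymal marker Vim was at 1823 to 2684 CPM, and Fn1 and Col3a1 were detected, whereas Col1a1 and Col1a2 had at most 4 counts and Thy1 none. The epithelial markers Epcam and Krt19 and the blood cell markers Ptprc and Cd3e had at most 1 count in any library, and Cdh1 had 20 to 48. In 37 °C replicate D, 16.5% of 10565 genes were 1.5-fold or more away from the average of replicates A to C, against 0.625% to 0.909% in each of A, B and C set against the remaining pair. Among the members this held for 3 genes in replicate D, of which 2 were lower (Cenpf by the most, at a log2 difference of -0.70) and 1 was higher (Pttg1, 0.62).

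Summed over the 38 members, the level was much the same in all 4 groups after scaling for library composition. Their summed level, as CPM scaled by TMM (edgeR's correction for library composition), averaged 9293 ± 297 (SD, n = 3) in the unheated libraries. In the heated libraries it averaged 9291 ± 200.2 after 1 h and 9363 ± 168 after 6 h at 40 °C, and 9107 ± 89.8 after 1 h at 42.5 °C (SD, n = 4 each). The 4 group means differed by less than the SD of the 37 °C libraries. Top2a gave the largest part of the sum and moved against it after 6 h at 40 °C and at 42.5 °C. It averaged 1668 CPM in unheated cells, 1727 and 1548 CPM after 1 h and 6 h at 40 °C, and 1795 CPM at 42.5 °C. The closeness of the sums therefore rested partly on this gene, and the sum without it was not taken. By CPM without the TMM correction, the sum was 9517 in unheated cells and 8820 at 42.5 °C, so the difference at 42.5 °C depended on the scaling. The heat map of all members by library shows 1 gene, Ccnf, standing far from the rest in the 42.5 °C libraries, with weaker shades for a few others. In bulk RNA, fewer cells in a phase and less of an mRNA per cell cannot be told apart.

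**Figure D1:**
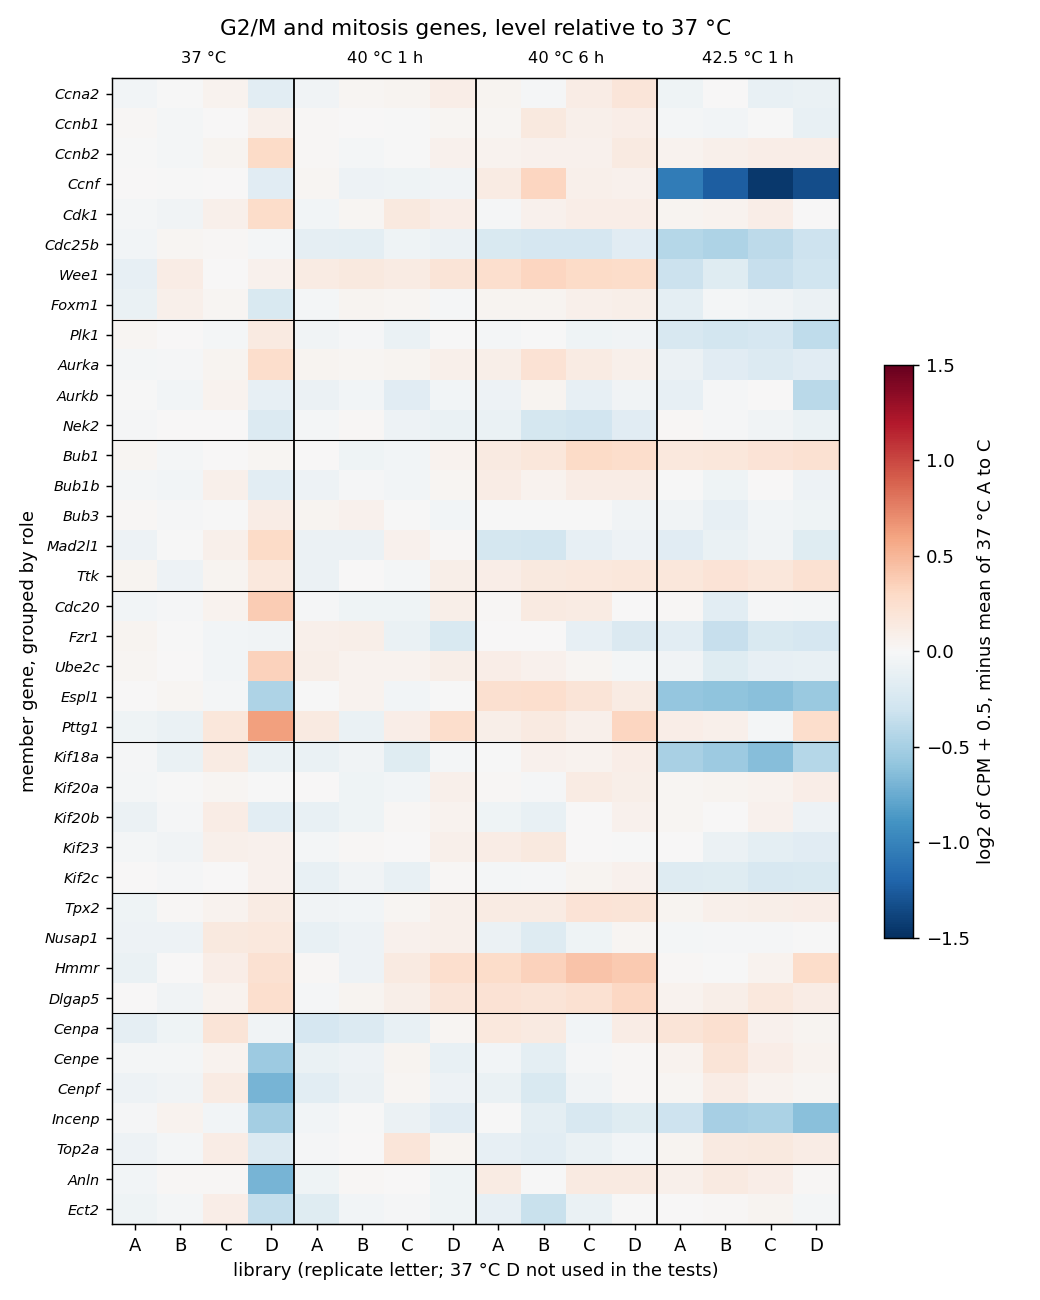
Colour gives the log2 level (CPM + 0.5) of each of the 38 members (vertical axis, grouped by role, with lines between roles) in each of the 16 libraries (horizontal axis, by group and replicate letter), relative to the mean of 37 °C replicates A to C. Ccnf is the darkest blue in all 4 libraries at 42.5 °C, Espl1, Kif18a, Incenp and Cdc25b are paler blue there, and 37 °C replicate D stands apart from A to C for several members.

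Each heated group was compared with 37 °C, and the groups heated for 1 h at 42.5 °C and for 6 h at 40 °C were each compared with the group heated for 1 h at 40 °C. A gene was called when its Benjamini-Hochberg adjusted p from edgeR's quasi-likelihood test was under 0.05 and its fold change was at least 1.5, and genes past the adjusted p alone were counted as well. The 3 comparisons with 37 °C share their control libraries, and the 2 between heated groups share the libraries after 1 h at 40 °C, so they are not independent of each other.

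After 1 h at 40 °C, 0 of 38 members were called against 37 °C, beside 0.334% of all genes tested. By adjusted p alone, 0 members rose and 0 fell, beside 1.07% of all genes that rose and 0.572% that fell. At an unadjusted p under 0.05 there were 2 members, and DESeq2 called 0 and passed 0 by adjusted p. The log2 changes ran from -0.14 (Cenpa) to 0.14 (Wee1) with a median of -0.01, and 34 of 38 were within 0.1 of 0. The 95% intervals of all 38 changes lay inside the 1.5-fold limits, the outermost bounds being -0.34 for Cenpa and 0.28 for Pttg1, so a change of 1.5-fold or more was outside the interval of every member.

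After 6 h at 40 °C, 0 of 38 members were called against 37 °C, beside 3.11% of all genes tested. By adjusted p alone, 7 members rose, beside 14.7% of all genes tested, and 4 fell, beside 14.8%. The median change of the members was 0.06, against 0.00 over all genes tested, and the outermost 95% bounds were -0.33 (Cdc25b) and 0.49 (Hmmr), again inside 1.5-fold. DESeq2 called 0 members and passed 9 of these 11, without Ttk and Incenp. With each library left out in turn, 7 of the 11 passed every time, and the 4 that did not were Incenp and Ttk (each lost when any of 6 libraries was left out), Mad2l1 (lost without 37 °C replicate B or C or 6 h replicate B) and Tpx2 (lost without 37 °C replicate A or 6 h replicate C). With replicate D kept among the controls, 4 of the 11 remained past the adjusted p and 7 did not (Nek2, Mad2l1, Ttk, Espl1, Tpx2, Dlgap5 and Incenp).

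At 42.5 °C for 1 h, 2 of 38 members, Ccnf and Espl1, were called lower against 37 °C, beside 4.68% of all genes tested. Ccnf was among the values that chose the list, and without it 1 of 37 members was called. By adjusted p alone, 2 members were higher, beside 20.8% of all genes tested, and 12 were lower, beside 22.3%. Nothing is read from these counts. The median change was -0.05 with Ccnf and -0.04 without it, and 20 of 38 members lay within 0.1 of 0. Espl1, at -0.60, was the member just past the fold threshold, and Kif18a, at -0.53, the member just short of it. Ccnf ranked 63rd from the lowest among 10470 genes tested. The call of Espl1 was lost without 37 °C replicate B (-0.58), without 42.5 °C replicate C (-0.58) or with replicate D kept (-0.49), which left 1 member called.

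Mitochondrially encoded genes took 2.53% ± 0.461 of counts in unheated cells (SD, n = 3) and 3.70% ± 0.102 at 42.5 °C (SD, n = 4), and with those genes removed before normalization the same 2 members were called and the same 14 passed the adjusted p. Summed over the 7 heat shock genes found of the 8 listed as markers of the heat treatment, the level was 2256 ± 104 CPM (SD, n = 3) in unheated cells, and in heated cells it was 3009 ± 475 and 3170 ± 424 CPM after 1 h and 6 h at 40 °C and 7142 ± 1974 CPM at 42.5 °C (SD, n = 4 each).

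**Figure D2:**
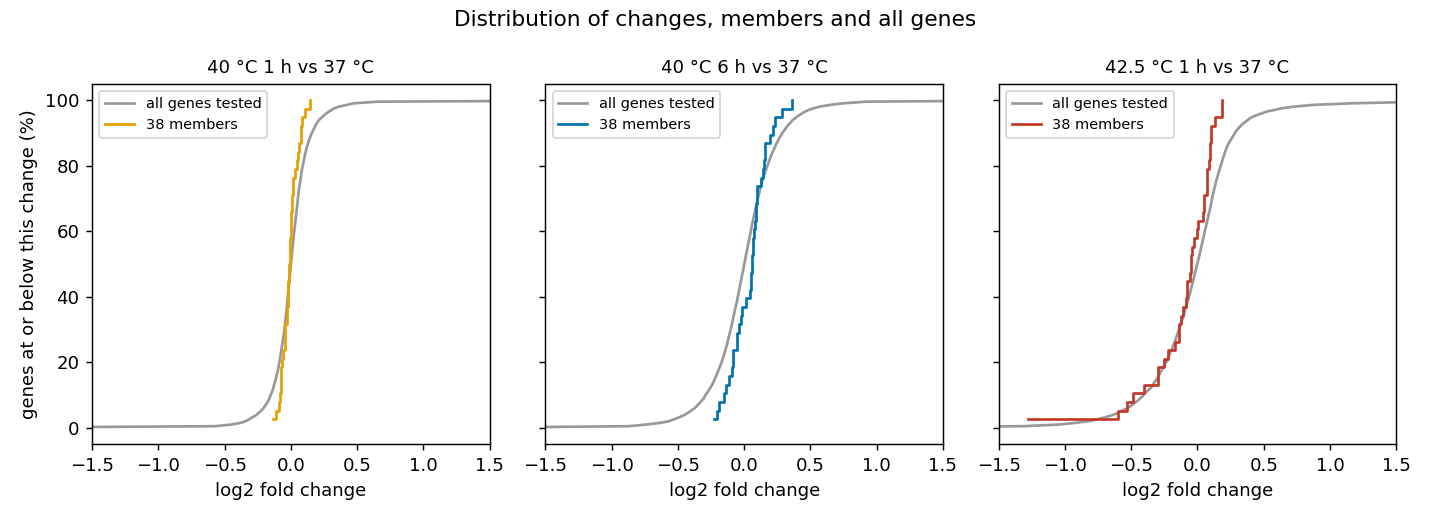
Each panel plots the percentage of genes (vertical axis) at or below a given log2 fold change against 37 °C (horizontal axis) for the 38 members (coloured steps) and for all genes tested (grey line), in 1 heated group. The steps span -0.14 to 0.14 after 1 h at 40 °C and -0.23 to 0.36 after 6 h at 40 °C, and at 42.5 °C 1 step, Ccnf, stands alone at -1.28 with the next at -0.60.

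Cyclins, CDK1 and its regulators were found for 8 of 9 names. Ccnf (ENSCGRG00001021164) encodes cyclin F, which does not bind a CDK but serves as the substrate receptor of an SCF ubiquitin ligase in G2. At 37 °C, Ccnf was at 86.3, 85.7 and 86.5 CPM in replicates A to C and at 76.8 CPM in replicate D. At 40 °C it was at 87.7, 81.7, 82.5 and 82.8 CPM after 1 h and at 93.9, 108, 91.2 and 89.9 CPM after 6 h. At 42.5 °C it was at 41.4, 36.2, 31.4 and 34.0 CPM in replicates A to D. All 4 libraries at 42.5 °C lay below every other library, replicate D of 37 °C included, and those after 6 h at 40 °C lay above the 37 °C libraries. The mean level was 86.2 ± 0.409 CPM (SD, n = 3) in unheated cells and 35.7 ± 4.23 CPM in cells heated to 42.5 °C (SD, n = 4), a log2 change of -1.28 ± 0.07 (SE). Against 1 h at 40 °C the log2 difference was -1.23 ± 0.07 (SE), also given without a test. At 40 °C, the Ccnf change from 37 °C was -0.04 after 1 h and 0.15 after 6 h. Both are given without a test, since the 37 °C values of Ccnf also entered the choice of the list. Between the heated groups at 40 °C, Ccnf rose from 1 h to 6 h by 0.19 ± 0.06 (SE, edgeR adjusted p = 0.0271).

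The other cyclins and CDK1 stayed close to their 37 °C levels. Ccna2, the cyclin of S phase and early mitosis, was at log2 changes against 37 °C of 0.03 and 0.08 after 1 h and 6 h at 40 °C and of -0.08 at 42.5 °C. The mitotic cyclin genes Ccnb1 and Ccnb2 were between -0.05 and 0.09 over these groups, Cdk1 between 0.04 and 0.06, and Foxm1, a transcription factor of the G2 programme, between -0.09 and 0.06. None of these 5 passed the adjusted p in any of the 5 comparisons. At 42.5 °C, where the Ccnf difference from 37 °C was -1.28, the genes of the A- and B-type cyclins lay between -0.08 and 0.07.

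Wee1 and Cdc25b act on the same phosphates of CDK1, the first adding and the second removing them. After 6 h at 40 °C, Wee1 rose by 0.28 ± 0.06 (SE, edgeR adjusted p = 0.00155) and Cdc25b fell by 0.23 (edgeR adjusted p = 0.00178) on the log2 scale against 37 °C, and all 4 heated libraries of each lay on 1 side of the 3 controls. At 42.5 °C for 1 h both were lower than at 37 °C, Wee1 at -0.30 and Cdc25b at -0.40. Against 1 h at 40 °C, Wee1 fell by 0.44 (edgeR adjusted p = 4.79e-06) and Cdc25b by 0.29 (edgeR adjusted p = 0.000102) on the log2 scale at 42.5 °C. From 1 h to 6 h at 40 °C, Wee1 rose by 0.14 (edgeR adjusted p = 0.0366), and Cdc25b was at -0.11 (edgeR adjusted p = 0.0781).

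Of the 4 mitotic kinases, Plk1 (ENSCGRG00001021855), which drives mitotic entry and centrosome maturation, had the largest log2 change against 37 °C. At 37 °C it was at 319, 314 and 309 CPM, with 345 CPM in replicate D, and at 40 °C it was at 303, 309, 294 and 312 CPM after 1 h and 309, 314, 300.2 and 302 CPM after 6 h. At 42.5 °C it was at 267, 258, 263 and 241 CPM, so that all 4 libraries lay below every library of the other groups. The log2 change from 37 °C was -0.30 ± 0.04 (SE) at 42.5 °C, and against 1 h at 40 °C Plk1 fell by 0.25 (edgeR adjusted p = 0.000217). Aurka, the spindle pole Aurora kinase, was at -0.17 against 37 °C and fell by 0.21 against 1 h at 40 °C (edgeR adjusted p = 0.000404). Aurkb, the Aurora kinase of centromeres, passed in no comparison, with changes between -0.14 and 0.04. Nek2, a kinase of centrosome separation, took the other course among the kinases, since it fell after 6 h at 40 °C by 0.21 against 37 °C (edgeR adjusted p = 0.00507) and by 0.15 against 1 h at 40 °C (edgeR adjusted p = 0.0356), and was at -0.04 at 42.5 °C against 37 °C.

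**Figure D3:**
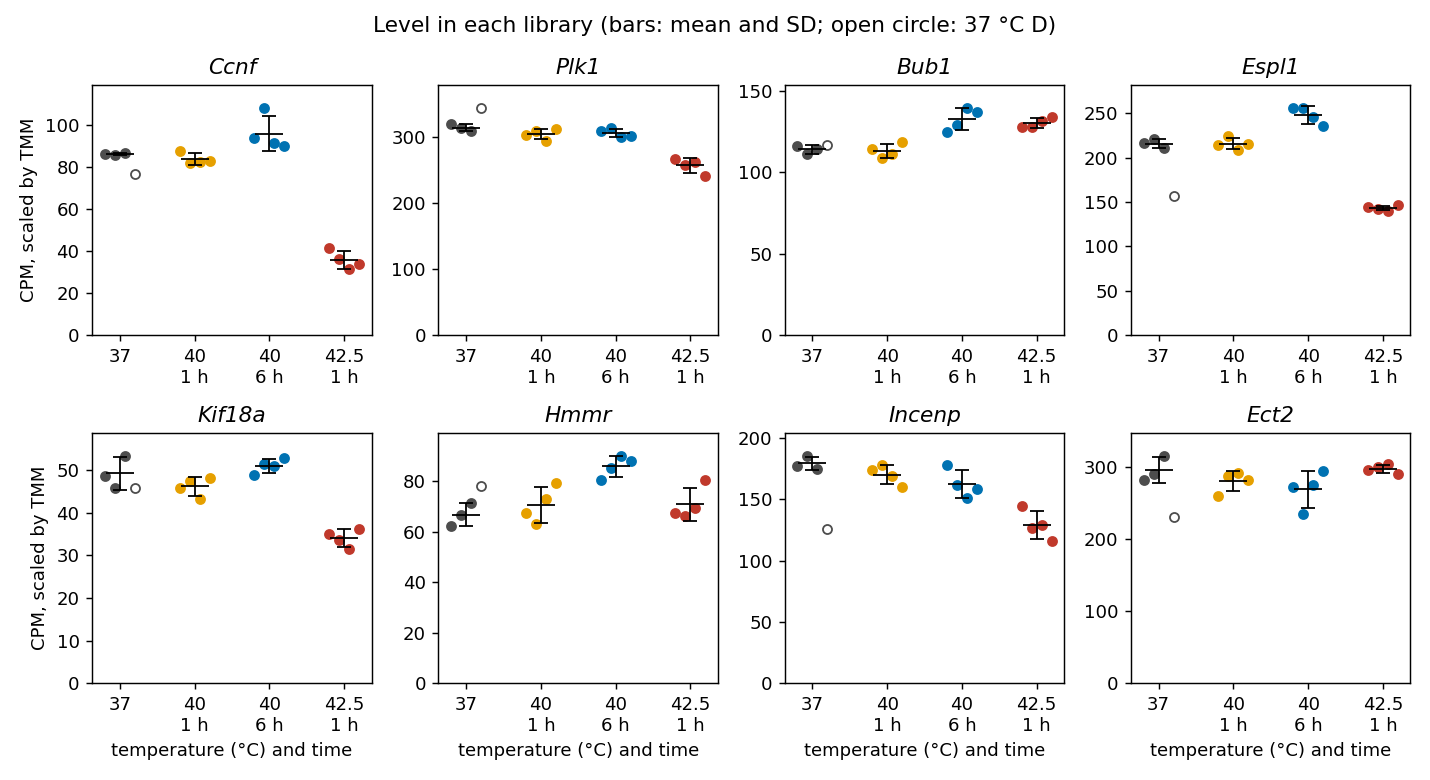
Each panel plots the level of 1 member (vertical axis, CPM scaled by TMM, from 0) in the 16 libraries (points) by temperature and time (horizontal axis), with bars for the mean and SD and an open circle for 37 °C replicate D, which is not in the mean. The 4 points at 42.5 °C lie below all others for Ccnf (31.4 to 41.4 CPM), Espl1, Kif18a and Plk1, Bub1 lies higher both after 6 h at 40 °C and at 42.5 °C, and Ect2 overlaps in all groups.

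The spindle checkpoint genes went different ways. Bub1 (ENSCGRG00001007952), a kinase that recruits checkpoint proteins to kinetochores, was at 116, 111 and 115 CPM at 37 °C (117 CPM in replicate D) and at 115, 109, 111 and 119 CPM after 1 h at 40 °C. It was at 125, 129, 139.7 and 137 CPM after 6 h at 40 °C and at 128, 128, 132 and 134 CPM at 42.5 °C. The libraries of these latter groups lay above all those at 37 °C and after 1 h at 40 °C. Bub1 rose by 0.21 ± 0.05 (SE, edgeR adjusted p = 0.00507) after 6 h at 40 °C against 37 °C, was at 0.18 at 42.5 °C against 37 °C, and rose by 0.20 at 42.5 °C against 1 h at 40 °C (edgeR adjusted p = 0.00173). Ttk, the kinase that starts checkpoint signalling, rose by 0.14 after 6 h at 40 °C (edgeR adjusted p = 0.0401) and was at 0.19 at 42.5 °C against 37 °C, and it rose by 0.20 against 1 h at 40 °C (edgeR adjusted p = 0.00253). Mad2l1, the checkpoint protein that binds CDC20, fell by 0.19 after 6 h at 40 °C (edgeR adjusted p = 0.022) and was at -0.14 at 42.5 °C. Bub1b and Bub3 passed in no comparison with 37 °C, with changes between -0.08 and 0.10, and Bub1b rose by 0.12 from 1 h to 6 h at 40 °C (edgeR adjusted p = 0.045).

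Espl1 (ENSCGRG00001019762) encodes separase, the protease that opens cohesin rings at anaphase. It was at 216, 220.4 and 210.5 CPM at 37 °C, at 214, 224, 209 and 215 CPM after 1 h at 40 °C, and at 255, 256, 246 and 235 CPM after 6 h at 40 °C. At 42.5 °C it was at 145, 142, 139.9 and 146 CPM. The libraries after 6 h at 40 °C lay above and those at 42.5 °C below all other libraries, and 37 °C replicate D, at 157 CPM, lay closer to the 42.5 °C libraries than to its own group. Espl1 rose by 0.20 ± 0.05 (SE, edgeR adjusted p = 0.00455) after 6 h at 40 °C against 37 °C, which became 0.30 with an edgeR adjusted p = 0.0939 when replicate D was kept, and rose by 0.20 against 1 h at 40 °C (edgeR adjusted p = 0.00479). At 42.5 °C it was at -0.60 ± 0.04 (SE) against 37 °C and fell by 0.60 ± 0.04 (SE, edgeR adjusted p = 3.37e-08) against 1 h at 40 °C. Pttg1, the gene of securin, which binds and holds back separase, was at 0.11, 0.16 and 0.10 against 37 °C in the 3 heated groups and passed in none.

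Among the partners of the anaphase-promoting complex, Fzr1, its activator in late mitosis and G1, was at -0.25 and Ube2c, its ubiquitin-conjugating enzyme, at -0.12 at 42.5 °C against 37 °C. Against 1 h at 40 °C, Fzr1 fell by 0.22 (edgeR adjusted p = 0.0138) and Ube2c by 0.19 (edgeR adjusted p = 0.000906). Cdc20, the activator at the start of anaphase, was between -0.05 and 0.07 against 37 °C and passed in no comparison.

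Of the mitotic kinesins, 5 of 6 names were found. Kif18a (ENSCGRG00001023500), a kinesin that dampens the movements of chromosomes at the spindle equator, was at 48.6, 45.7 and 53.4 CPM at 37 °C (45.8 CPM in replicate D), at 45.8, 47.5, 43.2 and 48.2 CPM after 1 h at 40 °C and at 48.8, 51.4, 50.9 and 52.8 CPM after 6 h at 40 °C. At 42.5 °C it was at 34.9, 33.5, 31.4 and 36.3 CPM, below every other library. Its log2 change was -0.53 ± 0.07 (SE) against 37 °C, and it fell by 0.44 (edgeR adjusted p = 4.86e-05) against 1 h at 40 °C. Kif2c, a microtubule depolymerase of centromeres, was at -0.22 at 42.5 °C against 37 °C and fell by 0.15 against 1 h at 40 °C (edgeR adjusted p = 0.0102). Kif23, which works in the central spindle, was at -0.11 and fell by 0.12 (edgeR adjusted p = 0.0445). Kif20a and Kif20b, both used in cytokinesis, were between -0.03 and 0.05 against 37 °C and passed in no comparison, and no kinesin passed in either comparison at 40 °C with 37 °C.

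Of the 4 spindle microtubule proteins found, 3 (Hmmr, Dlgap5 and Tpx2) rose after 6 h at 40 °C, beside 14.7% of all genes tested, and with 37 °C replicate D kept only Hmmr passed. Hmmr (ENSCGRG00001014307), a spindle protein that also binds hyaluronan, was at 62.2, 66.7 and 71.4 CPM at 37 °C (78.0 CPM in replicate D), at 67.4, 62.9, 73.0 and 79.3 CPM after 1 h at 40 °C, at 80.6, 85.1, 90.1 and 87.9 CPM after 6 h at 40 °C and at 67.5, 66.1, 69.3 and 80.5 CPM at 42.5 °C. The libraries after 6 h at 40 °C lay only just above all others. The lowest of them, replicate A at 80.6 CPM, was next to 42.5 °C replicate D at 80.5 CPM. The other 3 groups overlapped. Hmmr rose by 0.36 ± 0.06 (SE, edgeR adjusted p = 0.000261) against 37 °C and by 0.28 ± 0.06 (SE, edgeR adjusted p = 0.00644) against 1 h at 40 °C. Dlgap5, a protein of kinetochore fibres, rose by 0.24 (edgeR adjusted p = 0.00168) and Tpx2, the activator of Aurora A on the spindle, by 0.16 (edgeR adjusted p = 0.0161) against 37 °C. At 42.5 °C, Hmmr, Dlgap5, Tpx2 and Nusap1, which bundles spindle microtubules, were between -0.03 and 0.10 against 37 °C, and none passed against 1 h at 40 °C.

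**Figure D4:**
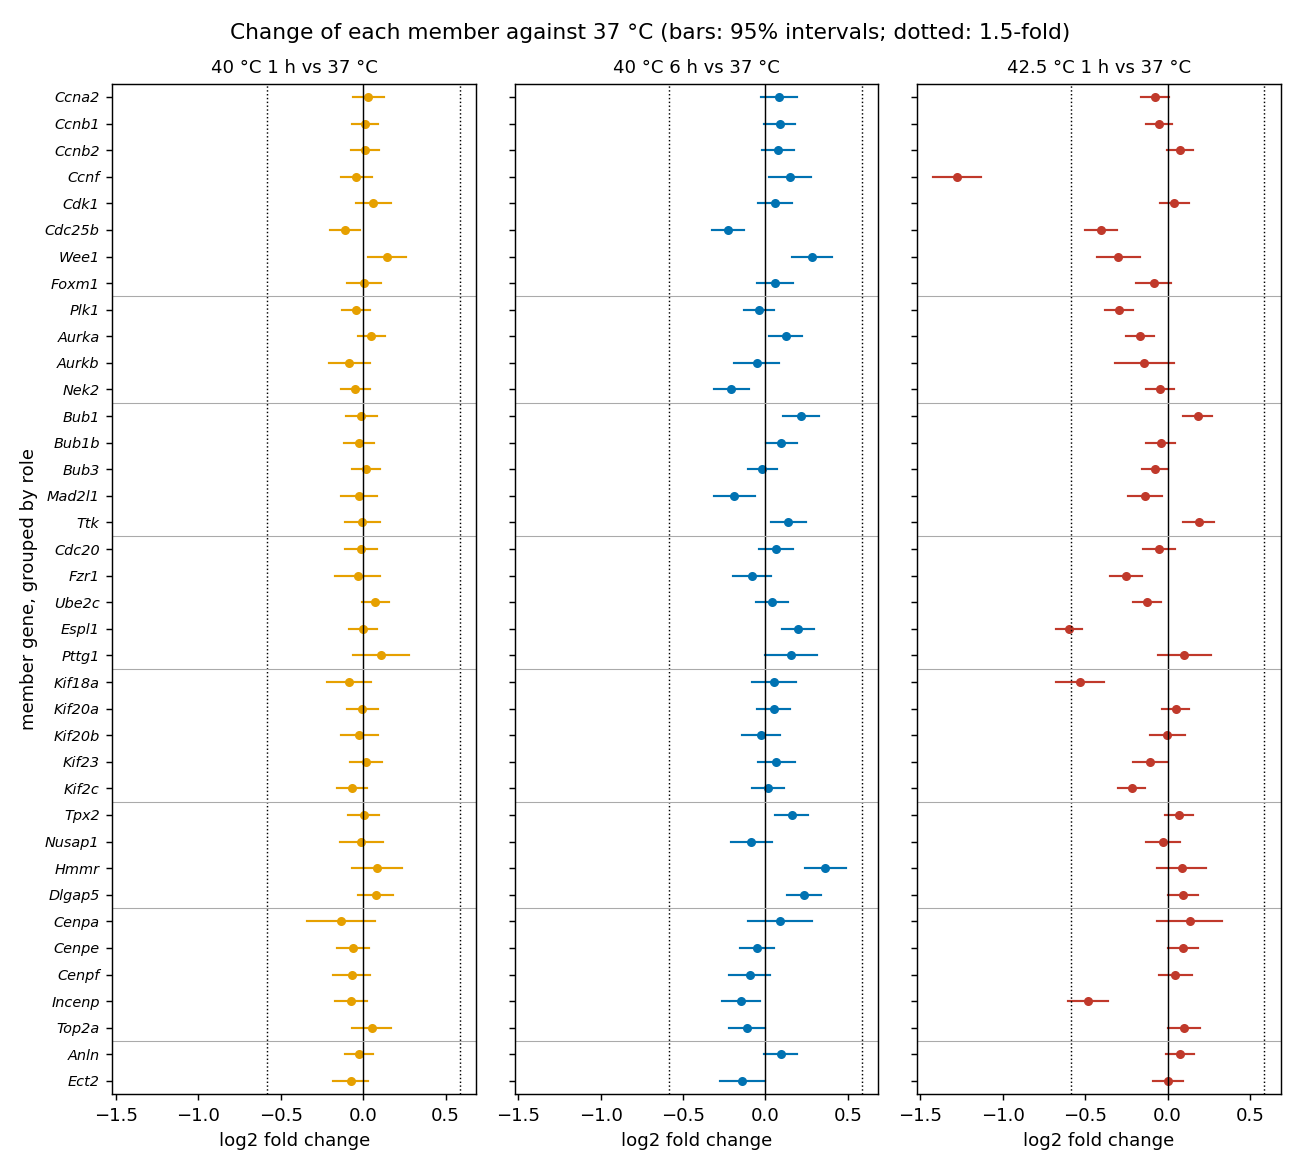
Points give the log2 fold change of each member (vertical axis, by role) against 37 °C (horizontal axis) in the 3 heated groups, with 95% intervals as bars and the 1.5-fold limits dotted. All bars lie inside the limits at 40 °C. At 42.5 °C the point of Ccnf stands apart at -1.28, and the bars of Espl1, Kif18a and Incenp cross the lower limit. The panel at 42.5 °C is a description only, since the Ccnf value there entered the choice of the list.

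Among centromere, kinetochore and chromosome proteins, Incenp (ENSCGRG00001019028), the scaffold that carries Aurora B in the chromosomal passenger complex, was at 177, 185 and 175 CPM at 37 °C and at 125 CPM in replicate D. It was at 174, 178, 169 and 159.8 CPM after 1 h at 40 °C, at 178, 161, 151 and 158 CPM after 6 h at 40 °C and at 144, 127, 129 and 116 CPM at 42.5 °C. The 42.5 °C libraries lay below those of both other heated groups and below 37 °C replicates A to C, but replicate D fell within their range. The log2 change of Incenp at 42.5 °C against 37 °C was -0.48 ± 0.06 (SE), or -0.36 with replicate D kept, both given without a test. Against 1 h at 40 °C, Incenp fell by 0.41 ± 0.06 (SE, edgeR adjusted p = 5.64e-05) at 42.5 °C. After 6 h at 40 °C, Incenp fell by 0.15 (edgeR adjusted p = 0.0484), which became -0.04 (edgeR adjusted p = 0.872) with replicate D kept. The kinetochore genes of this group went the other way in the comparison of 42.5 °C with 1 h at 40 °C. Cenpa, the centromeric histone, rose by 0.27 ± 0.08 (SE, edgeR adjusted p = 0.0185), Cenpe, a kinetochore motor, by 0.16 (edgeR adjusted p = 0.0122) and Cenpf by 0.12 (edgeR adjusted p = 0.0403). Part of each difference lay in the 40 °C group. Against 37 °C, Cenpa, Cenpe and Cenpf were at -0.14, -0.06 and -0.07 after 1 h at 40 °C and at 0.13, 0.09 and 0.05 at 42.5 °C. Top2a, the topoisomerase that untangles sister chromatids, fell by 0.16 from 1 h to 6 h at 40 °C (edgeR adjusted p = 0.0406) and was at -0.11 and 0.10 after 6 h at 40 °C and at 42.5 °C against 37 °C.

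Both cytokinesis genes stayed within 0.14 of 0 in all 5 comparisons and passed in none, although each passed under some alternatives. Ect2 (ENSCGRG00001011775), the exchange factor that activates RhoA at the division site, was at 281, 289.6 and 315 CPM at 37 °C (229.9 CPM in replicate D), at 259.9, 287, 291 and 282 CPM after 1 h at 40 °C, at 271, 234, 275 and 295 CPM after 6 h at 40 °C and at 295, 299, 304 and 290.4 CPM at 42.5 °C. The groups overlapped, and the log2 change of Ect2 at 42.5 °C against 37 °C was 0.00 ± 0.04 (SE). Anln, the scaffold of the contractile ring, was at 0.09 after 6 h at 40 °C and at 0.07 at 42.5 °C against 37 °C. At 42.5 °C against 1 h at 40 °C, Anln was at 0.10 (edgeR adjusted p = 0.0504), with no overlap of libraries. There it passed under several alternatives, among them DESeq2's Wald test and the replicate block, but not with no filter. Ect2 passed after 6 h at 40 °C against 37 °C with no filter and with the replicate block.

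Between the groups heated for 1 h, 1 of the 37 members other than Ccnf, Espl1, was called lower at 42.5 °C than at 40 °C, beside 3.51% of all genes tested. By adjusted p alone, 5 of these 37 rose, beside 16.4% of all genes tested, and 11 fell, beside 19.6%. Ccnf was also lower past both thresholds, but its value at 42.5 °C entered the choice of the list, so this only describes it. The median change of the 37 members other than Ccnf was -0.02, against 0.00 over all genes tested. With Ccnf included, edgeR and DESeq2 called the same 2 members and each passed 17, of which 16 were the same. With each library left out in turn, 13 of the 17 of edgeR, Ccnf included, passed every time, and Kif23, Cenpf, Cenpa and Fzr1 did not. Fzr1 was lost without replicate B of either group, Cenpa without 40 °C 1 h replicate A or B or 42.5 °C replicate B, Cenpf when any of 5 libraries was left out and Kif23 when any of 6 was. Without 40 °C 1 h replicate B (-0.58) or without 42.5 °C replicate C (-0.58), Espl1 was no longer past the 1.5-fold threshold. That left no member other than Ccnf called.

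Between 6 h and 1 h at 40 °C, 0 of 38 members were called, beside 1.28% of all genes tested. By adjusted p alone, 9 members rose, beside 9.45% of all genes tested, and 2 fell, beside 9.04%. DESeq2 called 0 and passed 11, of which 10 were the same, and 16 members were under an unadjusted p of 0.05. The count of 11 rested on several libraries, since 5 members passed without 40 °C 1 h replicate A, 3 without its replicate B, 4 without its replicate C, 7 without 40 °C 6 h replicate B and 4 without its replicate C. With each library left out in turn, only Hmmr, Bub1 and Espl1 passed every time, 3 of the 11, and the rise of Ccnf was lost without 40 °C 1 h replicate B or C or 40 °C 6 h replicate B. All 95% intervals lay inside 1.5-fold, with outermost bounds of -0.28 for Mad2l1 and 0.42 for Hmmr.

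**Figure D5:**
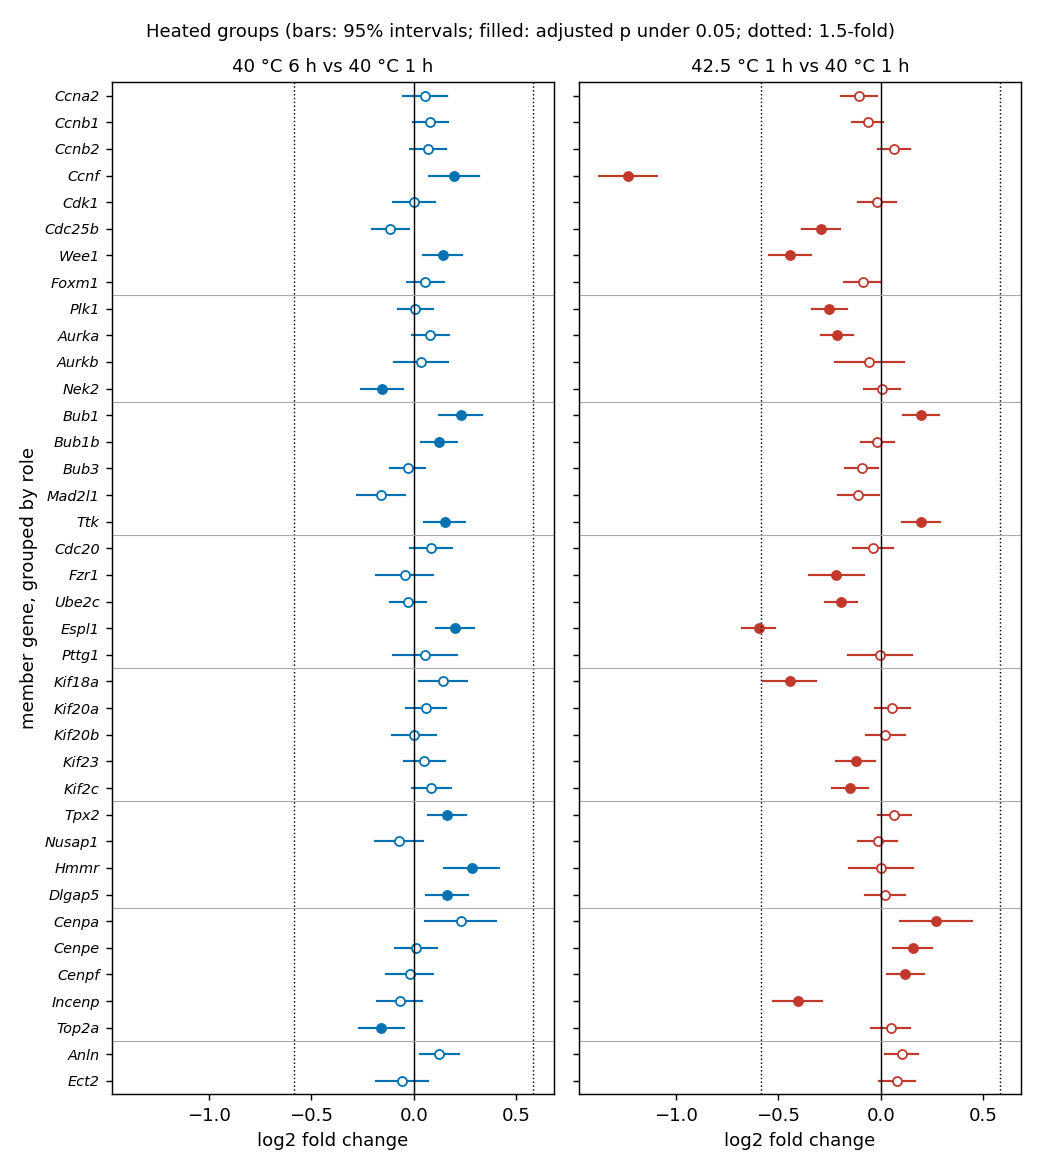
Points give the log2 fold change of each member (vertical axis, by role) between heated groups (horizontal axis), on the left for 6 h against 1 h at 40 °C and on the right for 42.5 °C against 40 °C at 1 h, with 95% intervals as bars, filled points for an edgeR adjusted p under 0.05 and the 1.5-fold limits dotted. All bars in the left panel lie inside the limits, Hmmr lying farthest right at 0.28, and in the right panel Ccnf at -1.23 and Espl1 at -0.60 lie beyond the lower limit. Both panels share the libraries after 1 h at 40 °C. The filled point of Ccnf in the right panel is a description only, since its value at 42.5 °C entered the choice of the list.

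Other genes of the same pathways were counted from lists that are not members. The shares of all genes tested that passed the adjusted p, against which these counts are to be read, were 14.7% higher and 14.8% lower after 6 h at 40 °C and 20.8% higher and 22.3% lower at 42.5 °C, both against 37 °C. Of 24 kinetochore proteins tested, 0 passed the adjusted p after 1 h at 40 °C, while 7 rose and 2 fell after 6 h at 40 °C against 37 °C, with a median of 0.02. At 42.5 °C, 4 were higher and 5 lower than at 37 °C by adjusted p, and only Mis12, a subunit of the kinetochore's microtubule-binding network, was called. Mis12 was at 3.44, 4.23 and 3.71 CPM in 37 °C replicates A to C and at 2.53, 1.87, 1.84 and 3.0 CPM at 42.5 °C, with no overlap between these groups, and fell by 0.65 ± 0.20 (SE, edgeR adjusted p = 0.0176) against 1 h at 40 °C, where the ranges of the libraries overlapped. Of 12 subunits of the anaphase-promoting complex, 2 rose and 1 fell after 6 h at 40 °C, 5 were higher and 2 lower at 42.5 °C against 37 °C, and none was called. Of 7 condensin subunits, which compact mitotic chromosomes, 2 rose and 1 fell after 6 h at 40 °C and 3 were higher and 1 lower at 42.5 °C, again with none called.

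Of 10 genes of the DREAM, MuvB and B-Myb complexes, which time the transcription of this programme, E2f5 was called after 6 h at 40 °C and no other gene was called in any comparison. E2f5 was at 3.44, 2.48 and 3.10 CPM at 37 °C, with 4.54 CPM in replicate D, and at 4.85, 5.62, 4.49 and 5.14 CPM after 6 h at 40 °C. It rose by 0.74 ± 0.17 (SE, edgeR adjusted p = 0.00311) on the log2 scale, and replicate D lay within the range of the heated libraries. After 1 h at 40 °C its log2 difference from 37 °C was 0.61 ± 0.17 (SE, edgeR adjusted p = 0.0909). Of 14 genes of the G2 checkpoint and mitotic entry control that were tested, 1 rose and 3 fell after 6 h at 40 °C, 0 were higher and 4 lower at 42.5 °C against 37 °C, and 1, Gadd45b, a stress-induced gene, was called lower at 42.5 °C. It was at 18.3, 14.5 and 14.8 CPM at 37 °C and at 7.95, 7.30, 7.66 and 8.04 CPM at 42.5 °C, and fell by 1.04 ± 0.12 (SE, edgeR adjusted p = 9.33e-06) against 1 h at 40 °C. Of 7 G1 cyclins and kinases, 1 rose and 3 fell after 6 h at 40 °C, 0 were higher and 3 lower at 42.5 °C against 37 °C, and 1, Ccne2, a partner of CDK2 at the start of S phase, was called lower at 42.5 °C. It was at 40.9, 40.4 and 39.3 CPM at 37 °C and at 25.4, 26.3, 25.7 and 25.3 CPM at 42.5 °C, and fell by 0.81 ± 0.07 (SE, edgeR adjusted p = 6.11e-07) against 1 h at 40 °C.

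For comparison, 42 genes of DNA replication and S phase, found of 47 listed, had medians against 37 °C of 0.00 after both 1 h and 6 h at 40 °C and of 0.04 at 42.5 °C, where the medians of the 38 members were -0.01, 0.06 and -0.05. None of these 42 was called in any of the 5 comparisons. By adjusted p, 7 rose and 7 fell after 6 h at 40 °C, and 8 were higher and 8 lower at 42.5 °C against 37 °C, counts near the shares over all genes tested (14.7% and 14.8%, then 20.8% and 22.3%).

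Neighbours of the members given by library, taken by symbol from the RefSeq annotation of another assembly, were read at 42.5 °C against 37 °C. Tedc2, beside Ccnf, was at -0.12 ± 0.09 (SE), while Mfsd5 and Pfdn5, beside Espl1, were at -0.40 ± 0.06 and 0.11 ± 0.05 (SE). Mtln, beside Bub1, was at -0.62 ± 0.18 and Fth1, beside Incenp, at 0.27 ± 0.04 (SE). Mat2b and Nudcd2, beside Hmmr, were at -0.17 ± 0.07 and -0.14 ± 0.06, and Cckar, beside Ect2, was at -0.44 ± 0.32 (SE). In that annotation Kif18a overlaps Mettl15, which was at 6.04 CPM at 37 °C and 7.54 CPM at 42.5 °C, and Ect2 overlaps Rbpj, at -0.04 ± 0.06 (SE). Whether the counting used strand is not given in the sources used here, so reads of overlapping genes cannot be told apart with certainty.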

How the data were processed

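RNA sequencing of 16 libraries of CHO cells was analysed. Reads were trimmed, mapped and counted by the authors in CLC Genomics Workbench against the Chinese hamster assembly CHOK1GS_HDv1, and the deposited values are whole-number counts per gene without normalization. The annotation release, strand setting and treatment of reads with several mapping places are not given in the sources used here. The counts that the study prints for its libraries are identical to 37 °C replicates A, B and C and not to D, which was therefore taken as the control it left out.

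Groups were compared in pairs with edgeR 4.0.16 in R 4.3.3 (glmQLFit and glmQLFTest on counts, TMM, filterByExpr at its defaults, Benjamini-Hochberg adjustment over all genes tested), and genes were called at an adjusted p under 0.05 with a fold change of at least 1.5. Adjusted p values come from this test unless DESeq2 1.42.0 is named. Changes are log2 fold changes with their SE and 95% intervals, and levels are CPM scaled by TMM over all 16 libraries, with SD between libraries. Genes differ in length, so levels were not compared between genes. The depth of 10504192 to 14668365 counts sets a floor of 3 counts at 0.205 to 0.286 CPM, which covers counting error only. No coordinates are given, since the reference at hand is another build, and the search for promoter motifs was not run because no promoter table was at hand.

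The members and lists were chosen with earlier results of these data known. Library values are given for Ccnf, for each member called in any comparison and for the member with the largest change against 37 °C in each role group, and of the pathway lists each called gene was named. The replicate letters paired the libraries of 1 h at 40 °C with those of 37 °C, where the deviations of same-letter libraries from their group means correlated at 0.124 to 0.203 in all 3 pairs, and the replicate block changed no member call there. Over all genes tested, 634 passed the adjusted p there with the block, against 112 that rose and 60 that fell without it. The shares set beside the members come from fits without the block. Alternatives were DESeq2's size factors and Wald test, no filter, at least 10 counts in every library, 1 fit over all 4 groups, all 4 controls, the replicate block, each library left out in turn and, added after seeing the data, removal of mitochondrially encoded genes. The study calls the libraries biological repeats without saying how cultures were separated, so p-values measure the spread between these libraries, which may be technical.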

Additional observations from a re-analysis of the deposited data

Results flagged for a closer look

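Among the 38 members, 10 of 152 groups of 4 libraries held 1 library that stood apart by Dixon's test, which chance does in about 1 of 20 groups. In 37 °C replicate D, the library left out of the tests, Ccnf (76.8 CPM), Nek2 (171 CPM), Espl1 (157 CPM) and Anln (323 CPM) were low and Ube2c (329 CPM) was high. Among the heated libraries, Ccnf was high in 40 °C 1 h replicate A (87.7 CPM), Bub1b (343 CPM) and Anln (520.1 CPM) were low in 40 °C 6 h replicate B, and Bub3 was low in 40 °C 6 h replicate D (338 CPM) and in 42.5 °C replicate B (321 CPM).

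At 42.5 °C against 1 h at 40 °C, 16 members other than Ccnf differed past the adjusted p of edgeR, with log2 differences of Cdc25b -0.29, Wee1 -0.44, Plk1 -0.25, Aurka -0.21, Fzr1 -0.22, Ube2c -0.19, Espl1 -0.60, Kif18a -0.44, Kif23 -0.12, Kif2c -0.15 and Incenp -0.41 on the lower side and Bub1 0.20, Ttk 0.20, Cenpa 0.27, Cenpe 0.16 and Cenpf 0.12 on the higher side. Between 6 h and 1 h at 40 °C, 11 members differed, with log2 differences of Ccnf 0.19, Wee1 0.14, Bub1 0.23, Bub1b 0.12, Ttk 0.15, Espl1 0.20, Tpx2 0.16, Hmmr 0.28 and Dlgap5 0.16 on the higher side and Nek2 -0.15 and Top2a -0.16 on the lower side.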

How the results depend on the processing

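Of 2850 member changes recomputed under the alternatives, 2694 kept their side of the adjusted p threshold, 111 no longer passed it and 45 newly passed it. Of the changes that passed with or without the alternative, 0 reversed direction. Reversals of changes that passed in neither were not counted. Incenp after 1 h at 40 °C, for example, went from -0.08 to 0.04 with all 4 controls. With all 4 control libraries, 4 members passed the adjusted p after 6 h at 40 °C in place of 11, and 1 in place of 2 was called at 42.5 °C against 37 °C. By plain CPM, the summed member level at 42.5 °C was 8820 in place of 9107. With each library left out in turn, the median change ran from 0.047 to 0.095 after 6 h at 40 °C against 37 °C, from -0.052 to -0.012 at 42.5 °C against 1 h at 40 °C and from 0.046 to 0.083 for 6 h against 1 h at 40 °C. The count called ran from 1 to 2 at 42.5 °C against either group, and the count past the adjusted p from 3 to 11 for 6 h against 1 h at 40 °C. All counts at 42.5 °C and all counts against 37 °C here include Ccnf, which is described and not tested there. With the replicate block, 0 members passed against 37 °C after 1 h at 40 °C, 13 after 6 h and 17 at 42.5 °C, and against 1 h at 40 °C 19 passed at 42.5 °C and 12 after 6 h, with the called members as before. Only after 1 h at 40 °C against 37 °C did the letters pair the libraries; elsewhere same-letter correlations averaged 0.03 to 0.06. The causes were not tested. The lowest count of any member was 218.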
